A study of Rattus norvegicus with 98 samples.

Results

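Fluoxetine (FT) was compared with vehicle (Sham) in the infralimbic cortex (ILC) by the deposited H3K27ac peak lists of 4 ChIP-seq libraries, 2 Sham and 2 FT, out of 94 lists from 25 brain regions. The members were the lists whose labels give the region ILC and the treatment Sham or FT, replicates 1 and 2. The animals were male Long-Evans rats, 2 months old when assigned to the groups, with no mutation or stress model. FT rats drank fluoxetine at 18 mg per kg body weight a day for 6 weeks, and Sham rats drank water. Tissue of both groups was taken after the 6 weeks. Tissue punches of several animals were pooled for each replicate, 1 pool of animals gave all the regions of its replicate, and the Sham and FT tissue of a replicate was processed in parallel. A punch of cortex holds neurons, glia and vessel cells, so a change in the share of a cell type and a change of acetylation within cells cannot be told apart.

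H3K27ac is acetylation of lysine 27 of histone H3. It marks active promoters and active enhancers, and a stretch of enriched reads, a peak, is read as a regulatory element in use in the tissue. The ILC is the ventral part of the rodent medial prefrontal cortex. It projects to the amygdala, the raphe and the hypothalamus, and it is known for its part in the extinction of fear and in responses to stress and antidepressants. Fluoxetine blocks the serotonin transporter and so prolongs the action of serotonin released in this and other regions.

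Each list gives the position of every peak, the highest score of the peak caller's filter within the peak (maxScore), a −log10 p-value that runs from 4 to a limit of 200, and a normalised tag count in whole numbers. The lists hold no read counts, and the depth of each library is therefore unknown. Whether a list is longer through depth, through enrichment or through acetylation cannot be told apart.

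The 4 libraries did not pair by treatment in a simple way, and Sham replicate 2 stood apart. Libraries were compared over consecutive 1 kb windows of the genome, each counted as occupied by a list whose peaks covered 50% of it or more. Likeness was measured by the Jaccard index, that is, shared windows over the windows held by either library, on lists cut to the same number of peaks. The FT libraries were most like each other, at 0.740. Sham replicate 1 had an index of 0.635 with FT replicate 1 and 0.641 with FT replicate 2, but 0.359 with Sham replicate 2. Sham replicate 2 had 0.311 and 0.320 with the FT libraries. Its list was the shortest of the 94, at 19378 peaks. The labelled tissue was checked by the nearest regions, since gene names could not be attached. Among the 24 other regions, Sham replicate 1 and both FT libraries were most like CGC (cingulate cortex), with mean indices of 0.651, 0.666 and 0.660, followed by InsularCortex. By single lists, Sham replicate 1 was nearest to CGC Sham replicate 1 (0.684) and then CGC FT replicate 2 (0.646), ahead of every ILC list. Outside the ILC, the lists nearest to FT replicate 1 were the FT lists of PLC, at 0.735 and 0.726. The same held for FT replicate 2, at 0.717 and 0.714. The PLC mean also takes in the PLC Sham lists, of which replicate 2 had an index of 0.297 with FT replicate 1. Sham replicate 2 was about equally like NaCshell (0.330), PLC (prelimbic cortex, 0.328), MPOA (0.327) and CGC (0.321). The main counts are therefore also given without it, in which case Sham replicate 1 alone stands for the Sham group and has no replicate check. The named loci, the tag-count medians of shared windows and most values by region are given with all 4 libraries.

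More of the genome lay under a peak in FT than in Sham. The Sham lists held 33606 and 19378 peaks (replicates 1 and 2) and the FT lists 50499 and 48045. The treatments did not overlap. The Sham mean was 26492 ± 10061 peaks (SD, n = 2) and the FT mean 49272 ± 1735 (SD, n = 2), a log2 ratio of 0.90 with an exact two-sided permutation p of 0.333, the smallest that 2 against 2 libraries allow. The covered length was 48.4 Mb and 20.997 Mb in Sham and 82.0 Mb and 74.96 Mb in FT, a log2 ratio of 1.18 (exact permutation p = 0.333). Without Sham replicate 2 the log2 ratio was 0.55 for peak number and 0.70 for covered length. The Sham libraries differed from each other by a factor of 1.73 in peak number, against 1.05 between the FT libraries.

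Peaks were also stronger in FT by the caller's own measures. The Sham lists had median −log10 p values of 9.48 and 5.90 (replicates 1 and 2), and the FT lists 11.9 and 11.1. The limit of 200 was reached by 317 and 3 peaks in Sham and by 1244 and 1081 peaks in FT. Cutting all lists to their best 19378 peaks by maxScore kept 57.7% of Sham replicate 1, all of Sham replicate 2, 38.4% of FT replicate 1 and 40.3% of FT replicate 2. The weakest peak then kept had a −log10 p of 7.83 in Sham replicate 1, against 17.5 and 15.2 in the FT replicates, while in Sham replicate 2 it stood at the lower limit of 4. Lists of equal size therefore still differ in the strength of the peaks they hold.

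**Figure D1:**
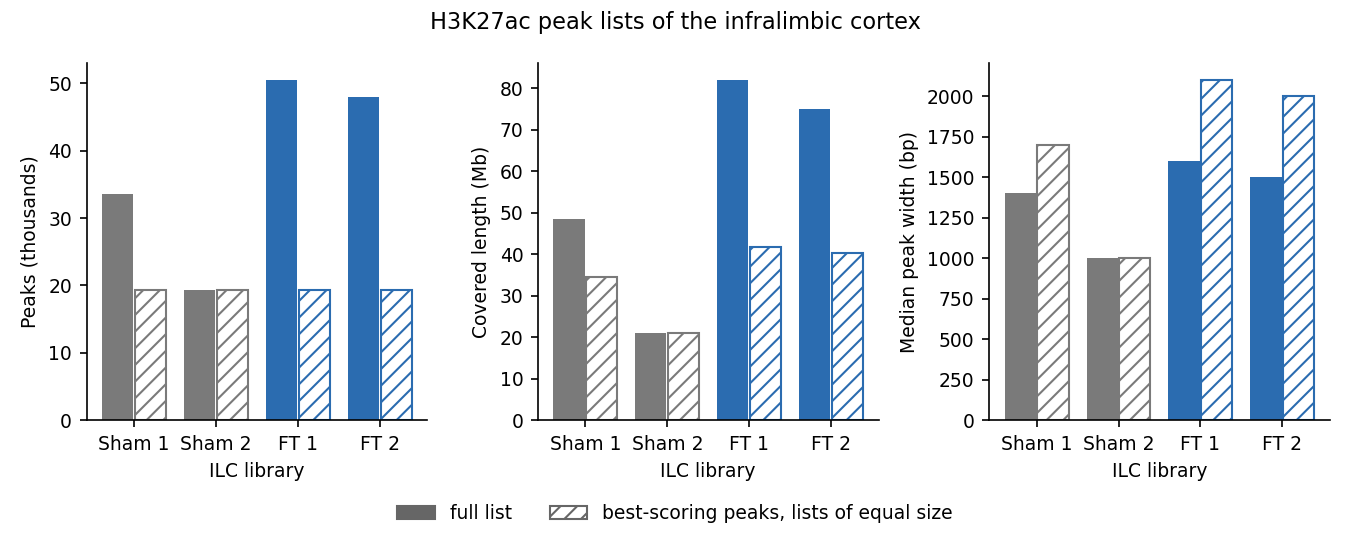
Peak number (in units of 1000), covered length (Mb) and median peak width (bp) of the 4 ILC libraries, with filled bars for the full lists and hatched bars for the 19378 best-scoring peaks of each. The FT bars exceed the Sham bars in every panel of the full lists, the Sham libraries lie far apart, and FT peaks stay wider at equal list size.

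Peaks were wider in FT, and this held at the same elements. The median width was 1400 bp and 1000 bp in the Sham replicates and 1600 bp and 1500 bp in the FT replicates on the full lists, a difference of 350 bp between the treatment means (exact permutation p = 0.333). On lists of equal size the medians were 1700 and 1000 bp in Sham and 2100 and 2000 bp in FT, a difference of 700 bp (exact permutation p = 0.333). These differences were 150 bp and 350 bp without Sham replicate 2. Widths in the lists are multiples of 100 bp.

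Overlapping peaks of the 4 lists were joined into elements, and elements with exactly 1 peak in each library were compared one by one. On lists of equal size there were 10745 of these. Their median widths were 1900 and 1300 bp in the Sham replicates, and 2200 and 2100 bp in the FT replicates. Both FT peaks were wider than both Sham peaks at 8952 elements, 83.3% of those compared, and narrower at 2, 0.0186%. When the libraries were split by replicate number instead, both peaks of replicate 1 were the wider at 403 elements and the narrower at 3. The crossed split, Sham replicate 1 with FT replicate 2 against the rest, gave 119 and 4. FT peaks exceeded those of Sham replicate 1 by a median of 250 bp and those of Sham replicate 2 by 850 bp, while the Sham replicates differed by 600 bp and the FT replicates by 100 bp. On the full lists 13214 elements were compared, and both FT peaks were the wider at 10640 (80.5%) and the narrower at 16 (0.121%). With Sham replicate 2 left out, both FT peaks were wider than that of Sham replicate 1 at 12849 of 15200 elements at equal size (84.5%), and narrower at 165 (1.09%). Peaks over 3 kb, the broadest class, numbered 169 and 11 in the full Sham lists and 569 and 467 in the full FT lists.

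Windows were then called by separation: FT-only when occupied in both FT libraries and in neither Sham library, Sham-only for the reverse. The 2 other ways to split the 4 libraries into pairs, by replicate number and crossed, were counted in the same way. On the full lists, 20891 of 99176 windows occupied in any library were FT-only (21.1%) and 323 were Sham-only (0.326%). The replicate split gave 2188 windows (2.21%) and 220 (0.222%), and the crossed split 1214 (1.22%) and 248 (0.25%). The treatment split therefore separated 21214 windows against a mean of 1935 for the others, a log2 ratio of 3.45 (one-sided exact permutation p = 0.333 over the 3 splits, the smallest possible).

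On lists of equal size the excess was smaller, but the direction was the same. Of 55539 windows, 6576 were FT-only (11.8%) and 366 Sham-only (0.659%). The replicate split separated 1635 (2.94%) and 246 (0.443%), and the crossed split 1305 (2.35%) and 223 (0.402%). Against the mean of the other splits this was a log2 ratio of 2.03 (one-sided exact permutation p = 0.333). Leaving out FT replicate 1 turned the ratio to -0.27, and leaving out FT replicate 2 to -0.14. The ratio was 0.79 at equal size when Sham replicate 2 was left out. On the full lists the ratio was 0.74 without Sham replicate 2 and 0.73 without FT replicate 1, and in the latter case the treatment split was not the one with the most windows (exact permutation p = 0.667). With 3 libraries each split sets 1 library apart, so wherever Sham replicate 2 is kept, setting it apart is among the splits compared. In each split the pair that held Sham replicate 2 had few windows of its own, 366 with the other Sham library, 246 with FT replicate 2 and 223 with FT replicate 1. The most common pattern was occupancy in all but Sham replicate 2, at 13957 windows (25.1%), followed by windows in all 4 libraries, which numbered 13668 (24.6%).

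The balance between the treatments depended on which Sham libraries were kept and on how list length was equalised. FT-only windows were 94.7% of those separating the treatments on lists of equal size. Without Sham replicate 2, with the lists at the same size, 7201 windows were occupied in both FT libraries and not in Sham replicate 1, and 3384 the other way round. With the 3 remaining lists cut to the shortest of them, 33606 peaks, the counts were 13524 and 4971. When the lists were cut to equal covered length, 2344 windows were FT-only and 1044 Sham-only. When each peak was reduced to the window of its centre, the counts were 2058 and 688. FT-only windows remained the larger class in each of these versions, at a lower share than in the uncut comparison.

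**Figure D2:**
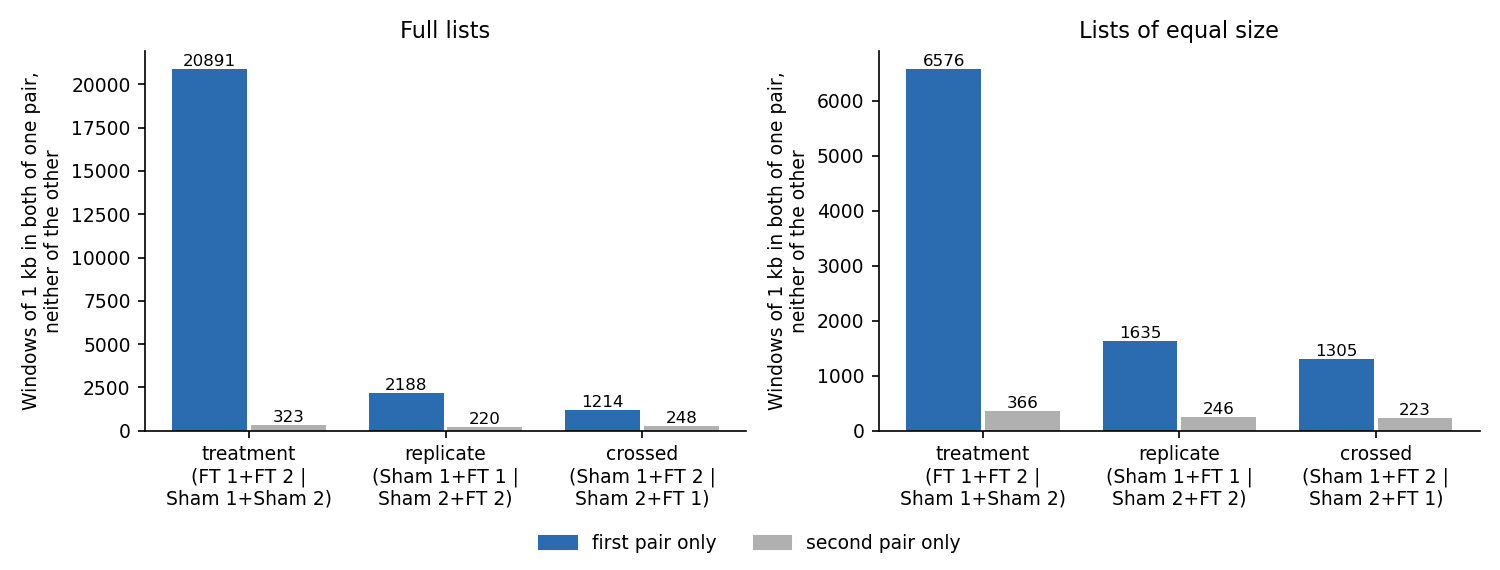
Number of 1 kb windows occupied in both libraries of a pair and in neither of the other pair, for the treatment, replicate and crossed splits of the 4 ILC libraries, on full lists and on lists of equal size. The FT-only bar, 20891 and 6576 windows, is the tallest in each panel, and each second pair, which holds Sham replicate 2, has 366 windows or fewer.

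The equal-size calls were not all present on the full lists. Of the 6576 FT-only windows, 4987 (75.8%) were also FT-only on the full lists, and the other 1589 were occupied in the full list of Sham replicate 1. None was occupied in Sham replicate 2, whose list is the same in both. Of the 366 Sham-only windows, 25 (6.83%) were Sham-only on the full lists. The full FT lists occupied 324 of them in replicate 1 and 320 in replicate 2. Most Sham-only windows at equal size thus held FT peaks that ranked below the cut.

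On lists of equal size, FT-only windows lay mostly at or beside peaks that Sham also had. Of the 6576, 3620 (55.0%) touched a Sham peak without being covered to 50%. The share was 59.6% within 1 kb of a Sham peak, 72.6% within 10 kb and 91.1% within 50 kb. Windows of the replicate split touched a peak of the libraries that lacked them in 37.2% (held by replicate 1) and 19.5% of cases, and those of the crossed split in 26.3% and 30.0%. Of Sham-only windows, 4.37% touched an FT peak. On the full lists 37.6% of FT-only windows touched a Sham peak and 62.4% lay within 10 kb. Without Sham replicate 2, 64.7% of the equal-size FT-only windows lay within 10 kb of a Sham peak.

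As joined elements the difference was smaller. On lists of equal size 30308 elements were formed, of which 10846 had a peak in all 4 libraries. Peaks in both FT libraries and in no Sham library made 1452 elements (4.79%), and the reverse made 428 (1.41%). On the full lists the counts were 11556 of 62930 (18.4%) and 411 (0.653%). The balance depended on the cut once Sham replicate 2 was left out. At equal size 1916 elements (8.07%) had peaks in both FT libraries and not in Sham replicate 1, and 2179 (9.17%) a peak in Sham replicate 1 and in neither FT library, while on the full lists the counts were 12222 (20.8%) and 2014 (3.43%). The FT counts here need both FT libraries to concur and the Sham counts rest on 1 library, so they are not on equal terms. A further 16017 elements of the full lists were present in Sham replicate 1 and both FT libraries but not in Sham replicate 2.

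Elements found only in FT were weak ones. On the full lists the 11556 elements had median −log10 p values of 7.32 and 6.61 in FT replicates 1 and 2. The lower value of the FT libraries had a median of 5.80. Of the elements, 1461 (12.6%) reached 10 in both libraries, 89 reached 20 and 0 reached 50. The 411 elements found only in Sham had a median of 4.43 for the lower value of the Sham libraries, and 0 reached 10. Elements present in all 4 libraries had medians of 25.5 and 7.24 in Sham replicates 1 and 2, and of 55.9 and 49.3 in the FT replicates. Elements missing from Sham replicate 2 alone had medians of 7.37 in Sham replicate 1, against 15.4 and 13.3 in the FT replicates. Elements with no Sham peak were thus among the weaker ones of the FT lists.

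The tag-count rank was compared at windows occupied in all 4 libraries, as the percentile of the deposited normalised tag count within the cut list. The count is a whole number with many ties, so percentiles take few values. Of 13668 such windows, both FT libraries ranked above both Sham libraries at 2969 (21.7%) and below them at 2912 (21.3%). The replicate split gave 2003 and 1529 windows, and the crossed split 1979 and 2267. The treatment split thus set apart 43.0% of the shared windows, against 25.8% and 31.1% for the other splits. Percentiles are relative to the list, so the balance of higher and lower depends on how the lists were cut, and at equal covered length 1068 windows ranked higher in FT and 4151 lower. Without Sham replicate 2 the counts were 11323 and 11015 of a larger shared set. Percentiles within the full lists are not a fair comparison, since a longer list adds weak peaks below a shared one, and they gave 9214 windows of higher (59.7%) and 397 of lower rank in FT (2.57%).

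FT-only windows ranked below windows in all 4 libraries in the lists that held them, but not below windows of the other splits. Their median percentile was 39.9 in FT replicate 1 and 39.9 in FT replicate 2, and 280 and 252 of the 6576 lay in the top 10%. Windows in all 4 libraries had medians of 79.8 and 80.6 in the Sham replicates and 70.1 and 74.97 in the FT replicates. Sham-only windows had medians of 33.2 and 41.2. In FT replicates 1 and 2, windows of the replicate split had medians of 18.9 and 14.6, and those of the crossed split 39.9 and 14.6. Windows held by FT replicate 1 alone or FT replicate 2 alone had medians of 18.9 and 39.9.

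**Figure D3:**
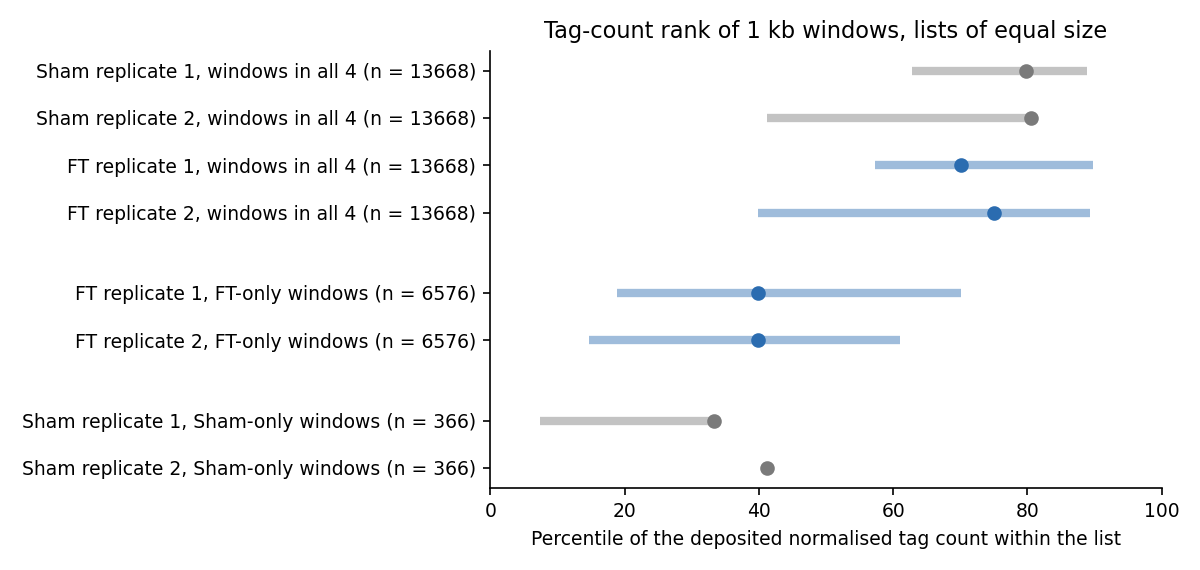
Percentile of the normalised tag count within the equal-size list, with points for the median over windows and bars for the interquartile range, by library and class of window. Windows in all 4 libraries have medians of 70.1 to 80.6, and FT-only windows 39.9 in both FT libraries. The Sham replicate 2 bar of Sham-only windows has no length because its quartiles are tied.

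Single loci show what these counts are made of. Adjoining windows of the same class were joined, which gave 5252 FT-only loci, 4024 of them of 1 window and 2 of 4 windows, and 347 Sham-only loci, 328 of 1 window. Coordinates are on Rn5, and no genes are named because an annotation of that build was not used here. The longest FT-only locus, chrX:40362001-40366000, was covered by a peak of 3700 bp in each FT library (−log10 p 34.4 and 28.2). Sham replicate 1 had a peak of 1700 bp there (−log10 p 7.52) and Sham replicate 2 a peak of 900 bp (−log10 p 4.03), so the element was present in all libraries and wider in FT. The other locus of 4 windows, chr20:21666001-21670000, had peaks of 3600 and 3400 bp in FT (−log10 p 25.5 and 23.7) and no Sham peak. The nearest peaks of Sham replicates 1 and 2 were 11288 and 39189 bp away. In the other regions, cut to the same list size, it was occupied in 6 of 45 Sham libraries and 12 of 45 FT libraries.

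At chr1:228093001-228096000, FT had a single peak of 5700 and 5800 bp at the upper limit of the p-value, and each Sham library had 2 separate peaks at the locus. The strongest Sham peak was 2600 bp wide in replicate 1 (−log10 p 200) and 2300 bp in replicate 2 (−log10 p 178). The tag counts of the strongest peaks were 19 and 12 in Sham and 29 and 25 in FT, and all 4 stood at a percentile of 99.9 or more. The neighbouring FT-only windows chr1:228090001-228091000 and chr1:228141001-228142000 likewise lay in the gaps or flanks of Sham peaks. The first lay beneath the same wide FT peaks. At the second, peaks of 4800 and 4500 bp in FT met peaks of 4200 and 3000 bp in Sham.

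Of the 10 longest FT-only loci, 9 had a peak of Sham replicate 1 and 4 a peak of Sham replicate 2 in the full lists. At chr5:146042001-146045000 the FT peaks were 2200 bp wide in both libraries (−log10 p 40.8 and 41.8), and the Sham peaks 1200 and 700 bp (−log10 p 5.87 and 4.11). At chr20:50346001-50349000 the FT peaks had a −log10 p of 49.2 and 40.3, Sham replicate 1 had 6.65 and Sham replicate 2 had none within 41511 bp. At chr8:117702001-117705000, chr6:37986001-37989000 and chr8:48973001-48976000, Sham replicate 1 likewise had a shorter and weaker peak. Sham replicate 2 had none, the nearest lying 7689, 27342 and 9489 bp away. At chr5:66198001-66201000 the shorter and weaker peak of Sham replicate 1 covered 50 bp of the locus. Sham replicate 2 had no peak in it, but one lay 20 bp away. At chr1:52796001-52799000 Sham replicate 1 had 2 peaks and Sham replicate 2 had 1, where each FT library had 1 peak of 4500 or 4200 bp.

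The FT-only windows of highest tag-count rank were also flanks. At chr12:40769001-40770000 the FT peaks stood at the limit of the p-value, with tag counts of 30 and 26 and widths of 3600 and 4000 bp. No Sham peak touched this window, but the nearest lay 401 bp away in replicate 1 and 608 bp away in replicate 2. At chr3:35190001-35191000 the FT peaks had tag counts of 29 and 26, and the nearest Sham peaks lay 9 and 239 bp away. The first window was occupied in 19 Sham and 29 FT libraries of other regions, and the second in 11 and 21.

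All 10 of the longest Sham-only loci, each of 2 windows, had a peak in both full FT lists. At the first, chr7:11964001-11966000, the Sham peaks had a −log10 p of 20.3 and 7.13 and tag counts of 8 and 4, and the FT peaks, which fell below the cut, 16.1 and 14.8 with tag counts of 10 and 9. At chr4:185373001-185375000 the −log10 p was 11.2 and 12.1 in Sham and 14.8 and 9.06 in FT. Both FT lists also held peaks at chr7:11203001-11205000, chr12:27196001-27198000, chr10:84874001-84876000, chr15:3377001-3379000, chr16:8266001-8268000, chrX:124851001-124853000, chr1:192919001-192921000 and chr5:20583001-20585000, where the strongest peak of any library had a −log10 p of 19.98. These loci separated the treatments by rank within the list, and not by a missing FT peak.

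Among the 5 Sham-only loci of highest rank, chr18:64606001-64607000 was the nearest to a missing FT peak. The Sham libraries had peaks of 800 bp there with tag counts of 14 and 7 (−log10 p 9.27 and 9.35), FT replicate 1 had a peak of 1000 bp that fell below the cut (−log10 p 10.9), and FT replicate 2 had none, the nearest lying 1483 bp away. At chr6:115990001-115991000 FT replicate 1 covered 700 bp and FT replicate 2 covered 54 bp of the window on the full lists, against 1000 and 558 bp in Sham. At chr2:11745001-11746000 and chr1:173530001-173531000 the FT peaks were stronger than the Sham peaks but covered 499 bp or less of the window. At chr18:50726001-50727000 both FT libraries had a peak in the full lists, of 900 and 700 bp.

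The windows of largest rank gap were looked at singly. The largest gap in favour of FT was at the adjoining windows chr17:76086001-76087000 and chr17:76087001-76088000, at percentiles of 7.40 and 6.80 in Sham and 57.3 and 61.0 in FT. The −log10 p was 11.2 and 7.17 in Sham and 67.7 and 63.4 in FT. Then came chr2:44480001-44481000, chr4:145189001-145190000 and chr6:46774001-46775000, each at percentiles of 33.2 and 41.2 in Sham and 85.4 and 83.8 in FT. The largest gap in favour of Sham was at chr2:134264001-134265000 and the adjoining chr2:134265001-134266000, at percentiles of 62.8 and 95.0 in Sham and 18.9 and 14.6 in FT. The tag count itself was 5 in each Sham library and 5 and 4 in FT, and the −log10 p 60.7 and 118 in Sham and 52.7 and 60.5 in FT. The widths were close, at 1500 and 1600 bp in Sham and 1600 bp in both FT libraries. At chr20:32685001-32686000 the tag counts were 5 and 4 in each treatment, and at chr13:55488001-55489000 and chr15:110116001-110117000 they were 6 and 4 in Sham and 6 and 5 in FT. The same tag count took a lower rank in the FT lists than in the Sham lists.

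FT-only windows were spread over the genome. On lists of equal size their share of the windows occupied in any library ran from 10.3% to 12.9% over the 20 autosomes and was 9.80% on chromosome X. On the full lists it ran from 19.4% to 23.3% and was 17.1% on chromosome X. The most FT-only windows in 1 Mb were 22 of 112 at chr8:116000001-117000000, followed by 20 of 76 at chr15:51000001-52000000. The highest share among the 6 megabases with the most was 40.4% (19 of 47), at chr20:50000001-51000000, which holds the named locus chr20:50346001-50349000. No megabase held more than 4 Sham-only windows at equal size.

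Nearly all windows that separated the treatments were active in other regions. With the lists of the 24 other regions cut to the same 19378 peaks, 6314 of the 6576 FT-only windows (96.0%, Wilson 95% interval 95.5 to 96.5) were occupied in at least 1 Sham library of another region. They were occupied in a median of 9 regions (interquartile range 3 to 17). Any list of another region, Sham or FT, held 6543 of them (99.5%), and 33 were in none. Of the 366 Sham-only windows, 360 (98.4%, Wilson interval 96.5 to 99.2) were in Sham elsewhere, in a median of 11 regions. The share was 98.8% and 91.5% for windows of the replicate split and 98.7% and 93.3% for those of the crossed split. Of windows in all 4 ILC libraries, 13666 of 13668 were in Sham elsewhere, in a median of 23 regions. The intervals treat windows as independent, which adjoining windows are not. The HB (habenula) Sham list stood apart from all others, with a Jaccard index of 0.00116 with Sham replicate 1, and occupancy in all 24 regions was thereby nearly impossible. Leaving HB out did not alter the 96.0%, and without ILC Sham replicate 2 the share was 96.2%.

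Windows held by Sham replicate 2 alone were unlike the rest. Of 5113 such windows, 2501 (48.9%) were in Sham of another region and 2507 were in no other list at all. For windows held by Sham replicate 1 alone the share was 94.5% (2851 of 3018), and for those of FT replicates 1 and 2 alone 87.3% and 85.8%. On the full lists, 4165 joined elements had a peak in Sham replicate 2 and in no other ILC library. Their median −log10 p was 4.58, just above the lower limit of the lists.

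**Figure D4:**
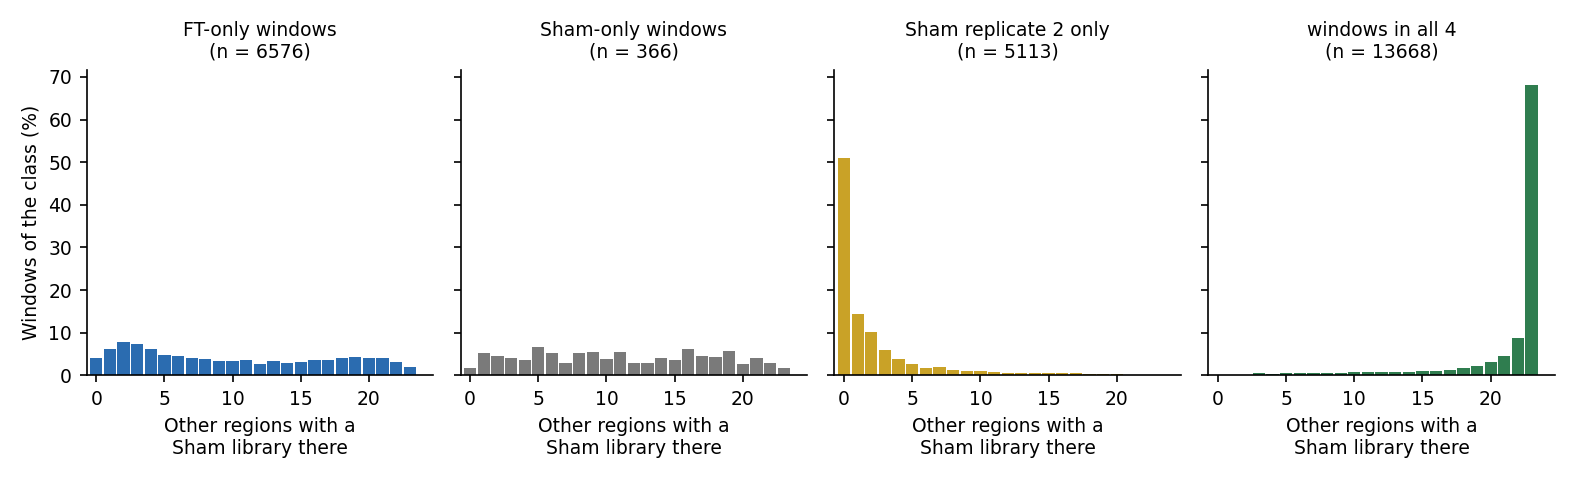
Share of windows (percent) by the number of other regions, of 24, in which at least 1 Sham library occupies them, for 4 classes of ILC windows on lists of equal size. FT-only and Sham-only windows spread over the whole range with medians of 9 and 11, windows of Sham replicate 2 alone pile up at 0, and windows in all 4 libraries at 23.

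FT-only windows were occupied in Sham libraries of cortex and in those of other regions. At least 1 Sham library of PLC, CGC or InsularCortex occupied 5454 of them (82.9%), and at least 1 Sham library of a region outside these 3 occupied 5705 (86.8%). For Sham-only windows the shares were 81.4% and 95.6%. The cortical share draws on 3 regions and the other on all the rest, so their sizes cannot be compared directly. Of the FT-only windows, 609 (9.26%) were held by cortical Sham libraries and no other Sham library, against 2.73% of Sham-only windows. Another 860 (13.1%) were held by Sham libraries of other regions and not by cortical ones, against 16.9% of Sham-only windows. The share in cortical Sham libraries and no other was 8.34% and 9.34% for windows held by FT replicate 1 or FT replicate 2 alone. It was 2.69% and 6.50% for the replicate split and 3.37% and 7.17% for the crossed split. For windows in all 4 ILC libraries the cortical share was 99.7%, and 0.366% and 0.315% were in cortical Sham libraries alone and in the others alone.

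The closest Sham counterpart was InsularCortex, where the Sham replicates occupied 58.8% and 64.1% of the ILC FT-only windows and the FT replicates 60.8% and 63.3%. The treatments overlapped there. In PLC, the neighbour of the ILC, the Sham replicates occupied 27.7% and 6.37% and the FT replicates 80.9% and 76.4%, and the groups were far apart. PLC Sham replicate 2 also held fewer of the windows common to all ILC libraries, 67.0% against 93.2% in PLC Sham replicate 1 and 97.8% and 97.6% in FT. In CGC the values were 40.5% and 49.8% in Sham and 66.1% and 60.8% in FT. Both FT libraries exceeded both Sham libraries in 14 of the 20 other regions with 2 libraries of each treatment, among them BLA, CMA (basolateral and centromedial amygdala), MS (medial septum) and NaCcore. They overlapped in the other 6, for example in Snt (nucleus of the solitary tract) at 38.0% and 34.2% in Sham and 37.6% and 38.0% in FT. In venDG (ventral dentate gyrus) the mean FT share was the lower of the treatments, at 48.5% against 50.2%, the single region of the 24 where it was. For windows common to all 4 ILC libraries, both FT libraries also exceeded both Sham libraries in BLA, CGC, MS, NaCcore and PLC. The same held in BNST (bed nucleus), LC (locus coeruleus), LS (lateral septum), MDT (mediodorsal thalamus) and VTA (ventral tegmental area). It did not hold in the rest of the 20. In all the regions named here but LC, FT-only windows had that order too. In MS the Sham libraries held 89.6% and 85.6% of the common windows, and the FT libraries 92.7% and 92.3%. In CMA the treatments overlapped, at 94.1% and 95.2% in Sham and 94.5% and 94.9% in FT. The same pools of animals gave all these regions, so the regions are not separate samples of the treatment.

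**Figure D5:**
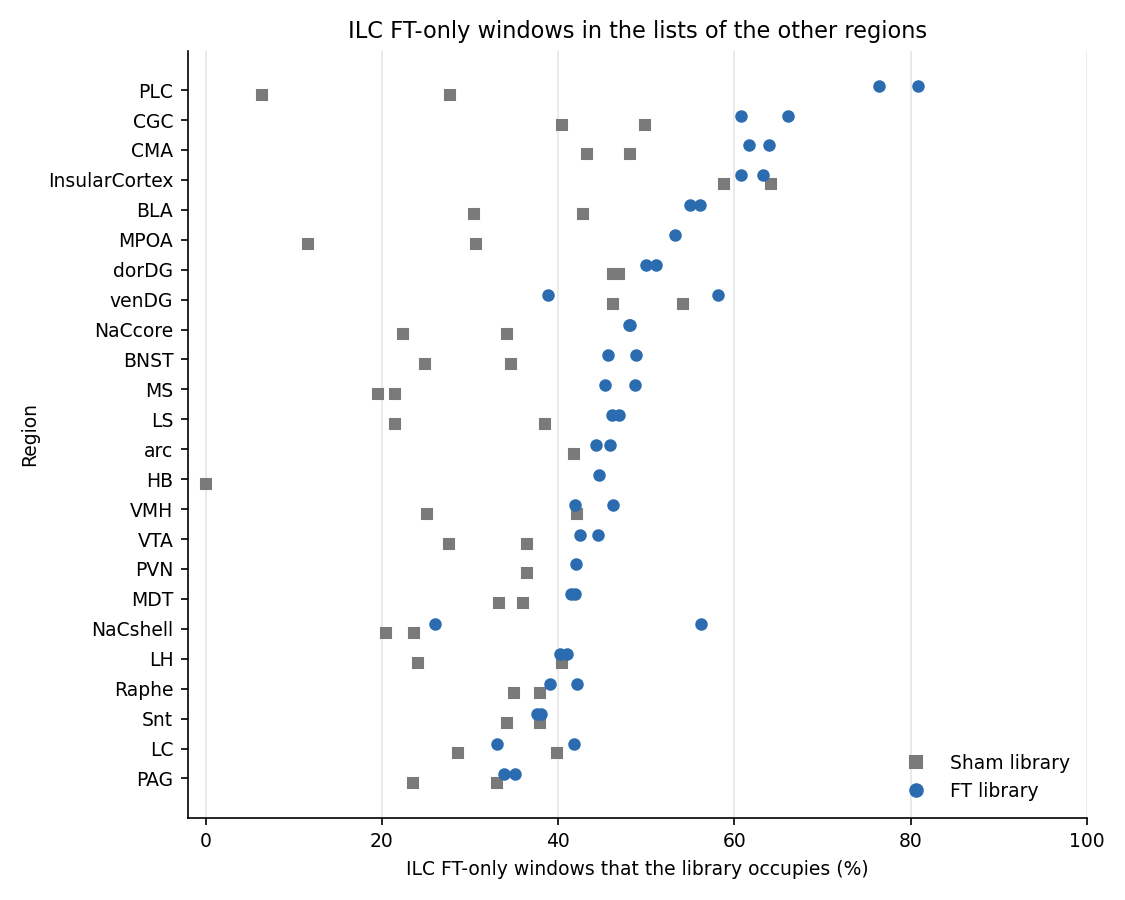
Share (percent) of the 6576 ILC FT-only windows that each library of the 24 other regions occupies, on lists of equal size, with squares for Sham and circles for FT libraries. PLC has the widest gap, with Sham at 6.37% and 27.7% and FT at 76.4% and 80.9%, while the treatments overlap in 6 of the 20 regions with 2 libraries of each, which are InsularCortex, LC, LH, Snt, venDG and VMH. The HB Sham list lies at 0.

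Most FT-only windows of the ILC were FT-only in some other region too, in PLC more than elsewhere. Of the 6576, 4847 (73.7%) were FT-only in at least 1 of the 20 regions with 2 libraries of each treatment, against 36.7% of all windows occupied in any ILC library. Of the ILC FT-only windows, 2910 were FT-only in PLC as well, 44.3% of the ILC list and 29.4% of the PLC list, while 15.6% of all windows occupied in any ILC library were FT-only in PLC. In MS the count was 1119, 17.0% of the ILC list and 17.6% of the MS list, against 7.40% of all ILC windows. In CGC it was 565 (8.59% and 24.9%, against 2.96%), in BLA 641 (9.75% and 17.5%, against 3.86%) and in InsularCortex 107 (1.63% and 12.3%, against 0.937%). The share was lowest in Snt, at 0.943% of the ILC list, against 0.598% of all ILC windows. Over the 20 regions, 1729 of the 6576 windows (26.3%) were FT-only in none and 1340 (20.4%, against 6.84% of all ILC windows) in 3 or more, up to 8 regions. The reverse, Sham-only in at least 1 other region, held for 712 (10.8%), against 14.3% of all ILC windows. Of the 366 ILC Sham-only windows, 204 (55.7%, against 85.7% of all ILC windows) were Sham-only in no other region, and 69 (18.9%, against 36.7%) were FT-only in at least 1. Without ILC Sham replicate 2, 72.4% of the 7201 windows were FT-only in at least 1 other region, and 3095 (43.0%) in PLC.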

How the data were processed

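H3K27ac ChIP-seq peak lists of 4 ILC libraries were analysed, with the 90 Sham and FT lists of 24 other regions for look-up only. The 4 input libraries were not used. Per the study's methods the authors ran DFilter library by library to call peaks. The submitters' processing notes name BWA (version not given in the sources used here) and the build Rn5. The deposited columns used were maxScore and the normalised tag count (both scores that depend on the library, the tag count rounded to whole numbers) and the −log10 p-value given by the authors. The deposited false discovery rate, a percent, was 0 for every peak. The lists do not state their origin, so starts were taken to count from 0, and printed coordinates count from 1. An origin of 1 would shift the peaks by 1 bp against the windows.

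Windows of 1 kb were occupied at a cover of at least 50%. Lists of equal size held the 19378 best peaks by maxScore, and tag-count percentiles were recomputed within them. Level measures were compared by the exact two-sided permutation test over the 3 splits of 4 libraries. No test was made per window. The study tested read counts per peak, which the lists do not hold. The window, distance and split functions were tested on simulated data made from a deposited list.

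Sham and FT samples of a replicate number were processed in parallel, so the numbers pair the samples. The correlation of the replicate differences of Sham and FT across windows was 0.00027 on lists of equal size and -0.0363 on the full lists. Named loci were the 10 longest of each direction and the 5 of highest rank, and the 5 shared windows of each direction with the largest gap in rank. The comparison, the lists and the rules were chosen with earlier results of these data known. Alternatives covered the libraries used, the replicate block, the p-value threshold, window size, overlap, list length, ranking column, covered length, peak centres, distance and the lists of other regions. Gene annotation and cell type markers were planned but not used, for want of a matching build. Python 3.11.15, numpy 2.4.6, pandas 2.3.3, scipy 1.17.1 and matplotlib 3.10.9 were used.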

Additional observations from a re-analysis of the deposited data

How the results depend on the processing

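Of 163 values under alternatives, 84 stayed on the same side or within the allowed range (1.5 times for a count, the 95% Wilson interval for a share), 77 moved and 2 reversed. With 2 against 2 libraries no p can fall below 0.333, and sequencing depth is not known. With the replicate block the log2 ratios were 0.95 for peak number and 1.30 for covered length, in the same direction as before. For separated windows and width differences the blocked value equals the unblocked one by definition. These values are among the 84 and are no check. The blocked tag-count counts were 3902 and 3732.

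Leaving out each library in turn gave log2 ratios of 0.55 to 1.35 for peak number and 0.70 to 1.90 for covered length, and width differences of 150 to 550 bp (full) and 350 to 1050 bp (equal size). FT-only windows numbered 21740 to 47498 (full) and 7201 to 20533 (equal size), and Sham-only windows 460 to 3729 and 630 to 5479. The highest counts of each came without Sham replicate 1, and with fewer libraries fewer have to concur on a window. The log2 ratio of splits ran from 0.73 to 1.81 (full). At equal size it ran from -0.27 to 2.09, and it reversed to -0.27 without FT replicate 1 and to -0.14 without FT replicate 2. Tag-count windows numbered 4011 to 11323 (FT higher) and 4041 to 11015 (FT lower), with the most without Sham replicate 2. The share within 10 kb was 58.9% to 70.6% and that in Sham elsewhere 92.4% to 98.6%.

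With windows of 500, 2000 and 5000 bp, FT-only counts were 41650, 10363 and 951 (full) and 13046, 3462 and 777 (equal size), and Sham-only counts 664, 64 and 0 (full) and 737, 82 and 0 (equal size). Tag-count windows were 5944, 1384 and 32 (FT higher) and 5863, 1192 and 10 (FT lower). The share within 10 kb was 74.4% and 97.2% at 2000 and 5000 bp, and that in Sham elsewhere 95.5% and 94.6%. Any overlap gave 32477 FT-only windows (full) and 752 (full) and 783 (equal size) Sham-only windows, and full cover 9712, 26 and 27. A −log10 p of at least 6 or 10 left 61 or 8 Sham-only windows on the full lists.

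With the best 10000 and 5000 peaks, FT-only windows were 3265 and 1488, FT-lower ranks 1739 and 1221, and the share within 10 kb 61.1% and 55.0%. With 5000 peaks, FT-higher ranks were 1214 and the share in Sham elsewhere 95.2%. At equal covered length, 2344 windows were FT-only, 1044 Sham-only, 1068 of higher rank in FT and 4151 of lower rank, with 81.4% within 10 kb and 97.1% in Sham elsewhere. Peak centres gave 2058 and 688 windows and 94.8% in Sham elsewhere. Ranking by tag count gave 76.8% and 96.6% for these shares. Within 1 kb and 50 kb of a Sham peak lay 59.6% and 91.1%. Full lists of other regions gave 99.1% in Sham elsewhere, and both Sham libraries of a region 84.3%. Without Sham replicate 2, lists cut to the shortest of the other 3 (chosen after seeing the data) gave 13524 and 4971 windows. Without Sham replicate 2, joined elements at equal size numbered 1916 for FT and 2179, the larger count, for Sham (also chosen after seeing the data). The FT count needs a peak in both FT libraries and the Sham count in 1 library, so these counts cannot give the balance. The cause of these changes was not tested.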
